A study of Homo sapiens with 2 samples.

Results

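The insulin and IGF axis genes are 10 genes of the 26506 in the tables, picked by symbol: the IGF-binding proteins IGFBP2, IGFBP3, IGFBP4, IGFBP5, IGFBP6 and IGFBP7, the receptors IGF1R and INSR, and the docking proteins IRS1 and IRS2. They were measured as poly(A) RNA in a human corneal epithelial line, ATCC CRL-11515, after 72 hours in one of 2 media. The first was KSFM, a keratinocyte medium without serum. The second, called special medium here, was DMEM/F12 to which 10% fetal bovine serum, 1 mM CaCl2, EGF at 10 ng/mL and an antibiotic/antimycotic mixture had been added. Each medium gave 1 library, made from the pooled RNA of 3 cultures, so no difference has a replicate check and no p-value is given. All cells were of 1 line, several components differed between the media together, and the labels do not give the insulin or IGF content of either medium. In such bulk RNA, fewer cells expressing a gene and less RNA per cell cannot be told apart.

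Insulin and the insulin-like growth factors IGF1 and IGF2 are hormones that bind the related receptor tyrosine kinases INSR and IGF1R. The activated receptors phosphorylate the docking proteins IRS1 and IRS2, which recruit PI3-kinase, and this leads through AKT to growth by way of mTORC1 and to exclusion of the FOXO transcription factors from the nucleus. The IGF-binding proteins are secreted carriers that hold IGFs outside the cell and are opened by proteases, and epithelial cells, those of the corneal surface included, secrete several of them and respond to insulin and IGF1 in growth and wound closure.

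Of the 10 genes, 9 were measured, that is, had at least 1 CPM (counts scaled to library size and composition) in either library, and IGFBP5 was not. IGFBP3 and IGFBP6 were higher in the special medium by at least 2-fold with a counting interval that excluded equality, none was lower by that rule, and 7 were neither. Over all 13632 genes measured, the same rule called 9.86% higher and 6.77% lower. Without the size limit, 4 of the 9 had an interval above equality (IGFBP2, IGFBP3, IGFBP4, IGFBP6) and 4 below it (IGFBP7, IGF1R, INSR, IRS2), while that of IRS1 held equality. Such intervals are narrow at these counts, and 37.2% of all measured genes lay above equality and 36.7% below it in the same sense. The median log2 ratio of the 9 genes was 0.09, against 0.00 over all measured genes.

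Total counts were 21604652 for KSFM and 16900472 for the special medium library. Over all genes 1344 were higher and 923 lower, so 59.3% of the calls were higher. On the deposited TPM values (the deposited unit that adjusts for transcript length) that share was 78.4% with a pseudocount of 1 (1265 higher, 349 lower) and 73.2% with a pseudocount of 0.1 (1656 and 605). The median log2 ratio of all genes was higher on that scale by 0.15 and 0.17, and with the first pseudocount centred on that median the share was 63.4% (928 and 536). Ratios below are of counts, special medium over KSFM, and TPM is used for levels of different genes. The labelled cell type was checked by its markers: the general epithelial genes CDH1 (10937 and 6849 counts, KSFM first) and EPCAM (5732 and 5915) were abundant. Of the 12 genes in the corneal epithelial list 7 were measured, 4 of them higher in the special medium, among these ELF3 (724 and 5574) and TKT (4669 and 10367). The basal keratin KRT5 had 1779 and 921 counts. KRT14 (4 and 10 counts), TP63 (5 and 13) and ALDH3A1 (5 and 14), of the same list, stayed below 1 CPM in both libraries. The keratins that define the corneal surface, KRT12 and KRT3, had 0 counts in both libraries and 0 and 1, and PAX6, the eye field factor, had 69 and 73.

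The start regions of the docking and receptor genes and of IGFBP3 and IGFBP6 are shown so that they can be read beside the results. Of the 10 genes, 9 had an entry in the RefSeq promoter table (GRCh38.p14), and IGFBP7 had none. Each sequence below lies before the RefSeq start, on the gene's own strand. Capitals mark matches, on either strand, to 4 motifs: GTAAACA, bound by forkhead factors such as the FOXO proteins; CAAAACA, the core of insulin response elements; GGGCGG, the GC box bound by SP1; and TATANA, which covers the TATA box. Matches can overlap each other and then form a longer run of capitals. For the docking and receptor genes the 250 bases directly before the start are given, IRS2 at chr13:109786584-109786833, IRS1 at chr2:226799821-226800070, INSR at chr19:7294415-7294664 (these 3 on the minus strand) and IGF1R at chr15:98648289-98648538 (plus strand).
IRS2: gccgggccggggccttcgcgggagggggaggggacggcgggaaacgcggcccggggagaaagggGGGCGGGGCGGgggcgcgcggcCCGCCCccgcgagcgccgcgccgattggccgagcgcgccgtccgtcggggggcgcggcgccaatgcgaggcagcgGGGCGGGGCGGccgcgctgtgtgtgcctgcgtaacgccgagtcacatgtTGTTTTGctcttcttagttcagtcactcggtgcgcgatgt
IRS1: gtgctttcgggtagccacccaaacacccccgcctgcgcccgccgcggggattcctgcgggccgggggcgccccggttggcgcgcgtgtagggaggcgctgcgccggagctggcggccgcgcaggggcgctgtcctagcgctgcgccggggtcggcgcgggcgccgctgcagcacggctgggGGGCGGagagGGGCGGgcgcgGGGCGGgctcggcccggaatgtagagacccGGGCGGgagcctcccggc
INSR: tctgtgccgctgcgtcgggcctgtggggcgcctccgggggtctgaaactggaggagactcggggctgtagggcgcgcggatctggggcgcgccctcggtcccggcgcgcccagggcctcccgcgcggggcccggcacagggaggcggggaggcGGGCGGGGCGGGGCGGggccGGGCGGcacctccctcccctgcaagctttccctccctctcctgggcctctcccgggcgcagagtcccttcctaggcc
IGF1R: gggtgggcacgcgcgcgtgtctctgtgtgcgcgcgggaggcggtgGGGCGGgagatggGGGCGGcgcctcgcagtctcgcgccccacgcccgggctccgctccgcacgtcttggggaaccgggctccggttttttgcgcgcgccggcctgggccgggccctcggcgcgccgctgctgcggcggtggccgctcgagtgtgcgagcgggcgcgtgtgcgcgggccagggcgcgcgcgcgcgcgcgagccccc

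IRS2 held a CAAAACA match on its opposite strand, read above as TGTTTTG, from 40 to 34 bases before the start, and 5 GC box matches. IRS1, its paralogue, held 4 GC box matches, as did INSR, while IGF1R held 2, and these 3 windows held no match to the other motifs. Among 35116 promoter entries of the same length, CAAAACA was found in 4.30%, GTAAACA in 2.98%, GGGCGG in 42.6% and TATANA in 17.7%. The 4 windows were rich in G and C, from 76.4% in IRS2 to 81.2% in IGF1R, against a median of 58.0% over the entries. A match describes the letters only.

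For the 2 binding proteins that were higher, the matches that the 4 genes above lacked are shown within 30 bases each, because exons of other annotated transcripts lie inside the longer windows. Positions are counted from the RefSeq start, and GENCODE release 29 has earlier starts for both genes, so that by its bounds both stretches lie inside the gene. IGFBP6 (chr12:53097470-53097499, plus strand) held the forkhead match from 186 to 180 bases before the RefSeq start, and IGFBP3 (chr7:45921286-45921315, minus strand) held 3 overlapping TATA matches between 32 and 25 bases before it. The full windows of 250 bases also held GC box matches, as those of the genes above did. In IGFBP3 these lay from 98 to 93 and from 6 to 1 bases before the start, and in IGFBP6 from 17 to 12. G and C made up 76% of the IGFBP3 window and 61.2% of the IGFBP6 window.
IGFBP6: caatttgggaaGTAAACAgaaactggaaag
IGFBP3: ccaccccggctTCTATATAgcggccggcgc

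GTAAACA was found in no other entry of the 9 genes that had one, and TATANA in IGFBP4 besides, from 29 to 24 bases before the start. IGFBP7 had no entry and could not be searched.

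In each medium a binding protein was the most abundant of the 10 genes, and IGFBP5 was the least. In KSFM, IGFBP2 stood first at 61.6 TPM (95% counting interval 57.4 to 65.9), followed by IGFBP4 at 48.4 (45.7 to 51.2), IGFBP6 at 45.4 (41.4 to 49.7) and IGFBP7 at 43.5 (39.8 to 47.4). The intervals of IGFBP4, IGFBP6 and IGFBP7 overlapped, so their order is not resolved. In the special medium IGFBP6 stood first at 184 TPM (174 to 194), with IGFBP2 at 89.6 (83.5 to 96.1), IGFBP4 at 60.7 (57.1 to 64.4), IGFBP7 at 31.8 (28.1 to 35.9) and IGFBP3 at 21.0 (19.1 to 23.1), and no neighbours in that order overlapped. IGFBP6 thus went from the third to the first place and IGFBP3 from the ninth, at 2.81 TPM, to the fifth.

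**Figure D1:**
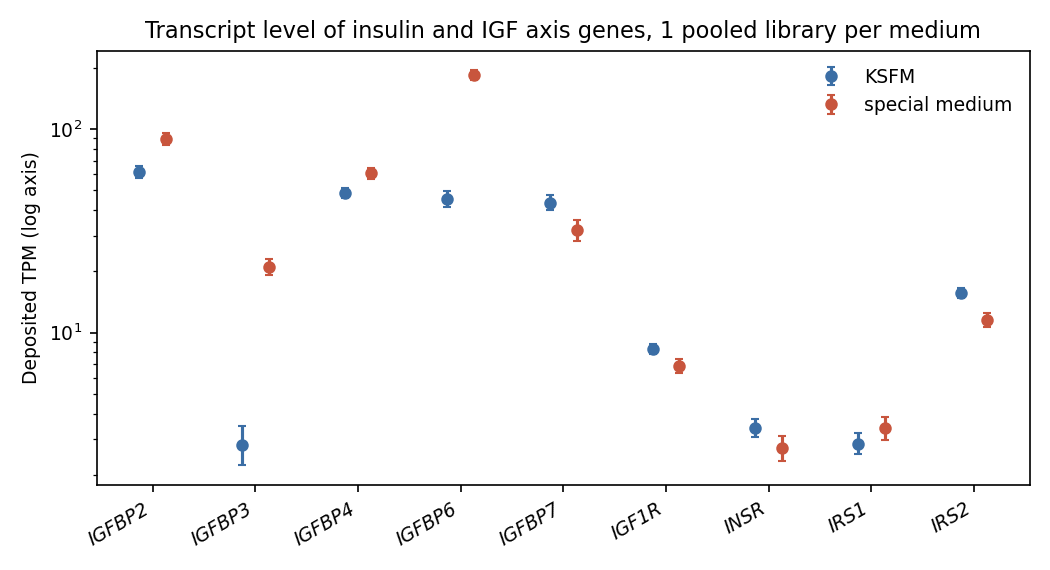
Deposited TPM on a log axis for the 9 measured genes, 1 point per library (blue, KSFM; red, special medium), with bars for the 95% counting interval. IGFBP6 goes from 45.4 to 184 TPM and IGFBP3 from 2.81 to 21.0, while the points of the receptors and docking proteins lie close together.

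IGFBP3, the main carrier of IGFs in serum, had 83 counts in the KSFM library and 433 in the other. These are 3.85 and 25.6 CPM, and the intervals of the 2 libraries lie far apart (3.06 to 4.77 and 23.2 to 28.1). The count ratio was 6.65-fold (95% interval 5.25 to 8.52), log2 2.73, which exceeded that of 98.3% of measured genes. The gene spans chromosome 7 from 45912245 to 45921874 on the minus strand (GRCh38, GENCODE release 29, as for all gene bounds here). Its neighbour 18576 bases away, IGFBP1, an insulin-repressed binding protein, had 1 count in the KSFM library and 0 in the other, too few for a comparison.

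IGFBP6, which binds IGF2 in preference to IGF1, had 465 and 1271 counts, or 21.5 and 75.1 CPM. It was 3.49-fold higher in the special medium (3.13 to 3.88), log2 1.80, above 96.3% of measured genes. On TPM it exceeded 73.9% of measured genes when grown in KSFM and 93.5% when grown in the special medium. IGFBP6 lies on chromosome 12 from 53097436 to 53102345, and its 1346 annotated exonic bases make it the most compact of the 10 genes.

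IGFBP2, a carrier with an integrin-binding motif, had 817 and 796 counts, or 37.9 and 47.0 CPM. Its ratio was 1.24-fold (1.13 to 1.37), log2 0.31, under the 2-fold limit. IGFBP4, a carrier that restrains IGF action until it is cleaved, had 1217 and 1059 counts and a ratio of 1.11-fold (1.02 to 1.21). Both were thus slightly higher in the special medium relative to the library, on fewer counts in the smaller library.

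IGFBP7, a related protein with low affinity for IGFs that also binds matrix, was the only measured binding protein that was lower in the special medium. It had 528 and 263 counts, or 24.5 and 15.5 CPM, and was 1.57-fold lower (1.36 to 1.83), short of the 2-fold rule. Its exons on chromosome 4 (57030773 to 57110385, minus strand) overlap those of POLR2B on the other strand, which had 3294 and 2387 counts. The strand setting of the counting is not given in the sources used here, so reads in the overlap may be shared. IGFBP7-AS1, an antisense gene that also overlaps it, had 0 counts in both.

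IGFBP5, a carrier abundant in many mesenchymal cells, had 0 counts in the KSFM library and 1 in the other, which allows at most 0.171 and 0.329 CPM (exact 95% upper limits). Its neighbour IGFBP2 lies 7668 bases away on chromosome 2 and is read from the other strand. IGFBP2 ranked first of the 10 by TPM in KSFM and the next after IGFBP6 in the special medium, and IGFBP5 ranked last in both.

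Summed over IGFBP2 to IGFBP7, counts were 3110 for KSFM and 3823 for the special medium, a ratio of 1.57-fold (1.49 to 1.64) after scaling. Summed TPM was 202 and 387, a larger ratio of 1.92-fold, on the scale whose median is shifted upward. The make-up differed between the libraries. By TPM, IGFBP6 was 22.5% of the sum in KSFM and 47.5% in the special medium, and IGFBP3 was 1.39% and 5.44%. The shares of the others were smaller in the special medium, at 30.5% and 23.2% for IGFBP2, 24.0% and 15.7% for IGFBP4, and 21.6% and 8.23% for IGFBP7. By counts, which do not adjust for length, IGFBP6 was 14.95% and 33.2% of the sum and IGFBP3 2.67% and 11.3%, a larger difference for IGFBP3 (8.66 percentage points against 4.04 by TPM). A ratio of a pair of genes within a library does not depend on library scaling. The IGFBP6 to IGFBP2 ratio was 2.81 times as large in the special medium (2.42 to 3.25), and the IGFBP3 to IGFBP7 ratio 10.5 times (7.87 to 14.0). IGFBP3 and IGFBP7 had the highest and lowest count ratios of the measured members. Their pair is thus the widest contrast, and its interval does not allow for that.

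**Figure D2:**
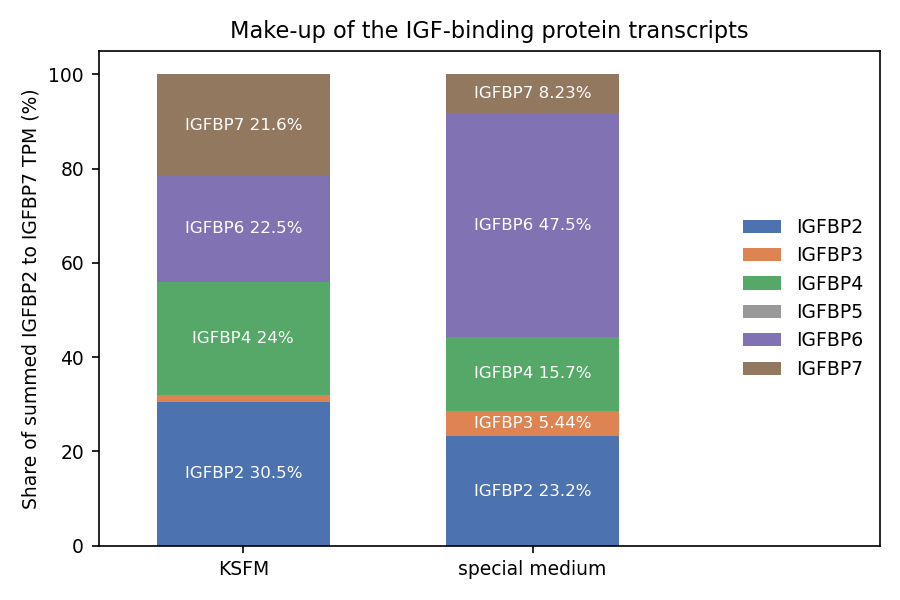
Stacked bars of each binding protein's percentage of the summed TPM of IGFBP2 to IGFBP7, 1 bar per library. IGFBP6 takes 22.5% in KSFM and 47.5% in the special medium, and IGFBP5 is too low to be seen.

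Both receptors were slightly less abundant in the special medium. IGF1R, the receptor for IGF1 and IGF2, had 1179 and 688 counts, or 54.6 and 40.7 CPM, and was 1.34-fold lower (1.22 to 1.48). INSR, the insulin receptor, had 371 and 207 counts, or 17.2 and 12.2 CPM, and was 1.41-fold lower (1.18 to 1.67). Neither reached the 2-fold limit, and their intervals overlap widely.

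Adjusted for length, IGF1R stood above INSR in both media, at 8.28 against 3.42 TPM in KSFM and 6.85 against 2.70 in the special medium. The ratio of the receptors was thus 2.42 and 2.54, and it differed between the libraries by 1.05 times (0.858 to 1.28), an interval that holds 1. IGF1R spans chromosome 15 from 98648539 to 98964530 and INSR chromosome 19 from 7112255 to 7294034.

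The docking proteins differed from each other. IRS2 had 1265 and 656 counts, or 58.6 and 38.8 CPM, and was 1.51-fold lower in the special medium (1.37 to 1.66). IRS1 had 289 and 242 counts, or 13.4 and 14.3 CPM, and a ratio of 1.07-fold (0.897 to 1.27). IRS2 was the more abundant docking protein in both libraries, at 15.6 TPM against 2.85 for IRS1 in KSFM and 11.5 against 3.39 in the special medium, so that it exceeded IRS1 by 5.48 and 3.39 times.

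The IRS1 to IRS2 ratio was 1.61 times as large in the special medium (1.32 to 1.97), and the TPM values gave 1.61 as well. At the lower end of the order, IRS1, INSR and IGFBP3 were not resolved from each other in KSFM, at 2.85 TPM (2.53 to 3.20), 3.42 (3.08 to 3.79) and 2.81 (2.24 to 3.48), and in the special medium IRS1 (2.98 to 3.85) and INSR (2.34 to 3.09) overlapped slightly. IRS1 lies on chromosome 2 from 226731317 to 226799759 and IRS2 on chromosome 13 from 109752698 to 109786568.

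**Figure D3:**
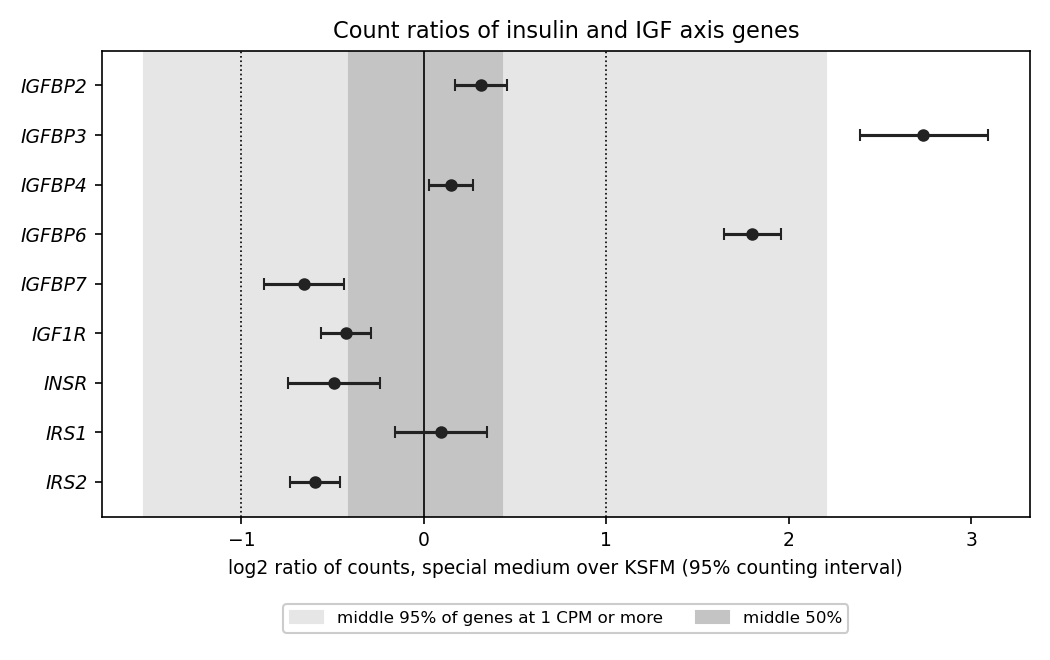
Log2 ratio of counts, special medium over KSFM, with 95% counting intervals, for the 9 measured genes. Shaded bands give the middle 50% and middle 95% of all measured genes and dotted lines the 2-fold limits; IGFBP3 at 2.73 lies beyond the wider band, and the other 8 lie inside it.

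The authors' TPM and count values also give an effective length for each gene, which depends on the isoforms present and on the length of the sequenced fragments. Relative to the median gene, that length in the special medium was between 0.946 (IGFBP2) and 0.999 (INSR) of that in KSFM for the 9 genes. The 4 short binding proteins, IGFBP2, IGFBP4, IGFBP6 and IGFBP7, were among the 4108 genes with the shortest effective length when genes were split into 3 equal classes, in which the median log2 ratio was −0.17, and the receptors and docking proteins were in the longest class, with a median of 0.05. After removal of the trend on length IGFBP6 stood at a log2 ratio of 2.08, IGFBP3 at 2.64, IGFBP7 at −0.46 and IRS2 at −0.70, and no gene of the 9 changed direction.

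Set among all genes by their CPM in the 2 libraries, genes near to IGFBP3 were ITGB6 (83 and 429 counts; distance 0.01 on the log2 scale), an integrin subunit of epithelia, and ZNF114 (distance 0.17). Nearest to IRS2, the gene whose interval lay furthest below equality, were PHRF1 (1268 and 650 counts; distance 0.01), WDR83OS (0.02) and UBL5 (0.04). This likeness is over 2 libraries only.

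**Figure D4:**
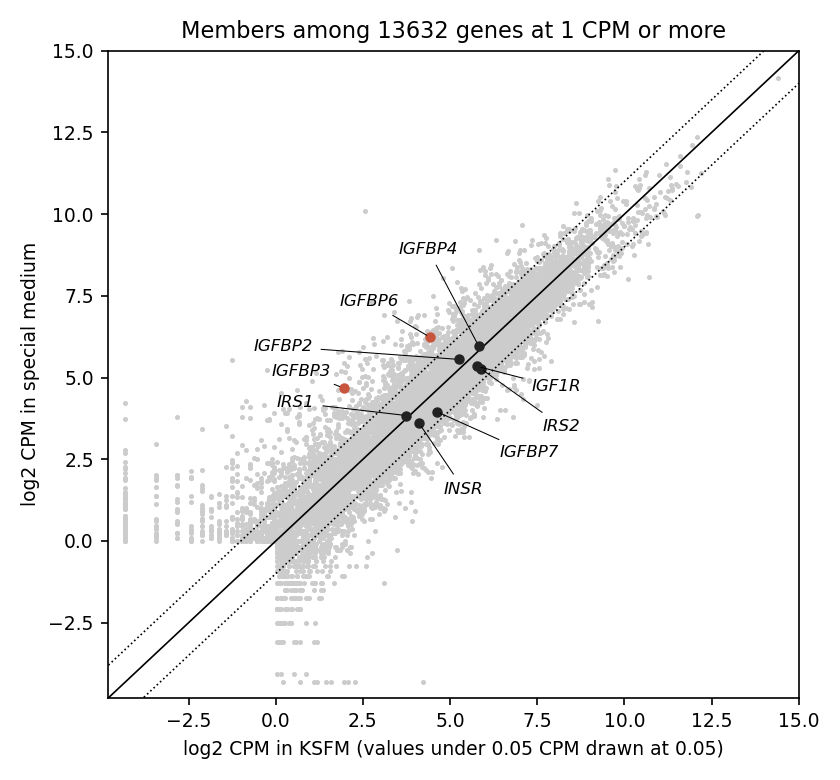
Log2 CPM in the special medium against log2 CPM in KSFM for the 13632 measured genes (grey) and the 9 measured insulin and IGF axis genes (red, past the 2-fold rule; black, neither). The solid line is equality and the dotted lines are 2-fold; IGFBP3 and IGFBP6 lie above the upper dotted line.

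The other genes of the pathway were read in 8 lists, of which 124 of 126 genes were found and 109 measured. Of these 22 were higher by the 2-fold rule, 5 lower and 82 neither, with a median log2 ratio of 0.20 against 0.00 for all genes. Over all measured genes the same rule called 9.86% higher and 6.77% lower. The count of each list below is to be read beside these shares, and no list was tested against them. Of the ligands, INS had 0 counts in both libraries, IGF1 2.86 and 1 estimated counts, and IGF2 277 and 347 counts. IGF2 was 1.60-fold higher in the special medium (1.36 to 1.88), at 5.22 and 9.14 TPM, and so was the one ligand measured. IGF2R, which clears IGF2 without signalling through a kinase, was the most abundant receptor at 39.1 and 33.9 TPM and was 1.28-fold lower (1.23 to 1.34). INSRR, IRS4 and IGFBPL1 had 0 counts in both, and IGFALS, the partner of IGFBP3 in serum, had 3 and 7.

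The genes listed as proteases of the binding proteins or inhibitors of those proteases had 6 of 10 measured genes higher, 1 lower and 3 neither. Their median log2 ratio was 1.20. The metalloprotease ADAM12 was 8.41-fold higher (6.06 to 11.9) on 42 and 277 counts, ADAM28 7.33-fold (2.51 to 29.2) on 4 and 23, and PRSS23, a serine protease, 3.84-fold (3.47 to 4.27). PAPPA2, which cleaves IGFBP3 and IGFBP5, had 31 and 2 counts, a 12.2-fold lower value whose interval runs from 3.09 to 105. STC1 and STC2, inhibitors of the pappalysin proteases, were 2.98-fold and 2.27-fold higher, and STC2 reached 252 TPM. PAPPA, the IGFBP4 protease, stayed below 1 CPM on 17 and 10 counts.

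All 3 IGF2 mRNA-binding proteins, which bind IGF2 and many other transcripts, had intervals above equality. IGF2BP3 was 3.14-fold higher (2.88 to 3.42), from 15.3 to 53.7 TPM, and IGF2BP1 and IGF2BP2 had log2 ratios of 0.78 and 0.85, under the limit.

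Among adaptors and inhibitors that bind the receptors, 4 of 21 genes were higher and 0 lower, with a median of 0.20. These were the caveolar coat protein gene CAV1 (5.47-fold, 5.14 to 5.83), the ubiquitin ligase gene NEDD4 (2.71-fold), the cytokine-signalling inhibitor gene SOCS3 (2.42-fold) and the adaptor gene SH2B1 (2.03-fold, 1.79 to 2.30). The insulin receptor phosphatase PTPN1 had a log2 ratio of 0.13 and the receptor-bound inhibitor GRB10 0.28.

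In the PI3-kinase and AKT list 3 of 22 were higher and 1 lower, with a median of 0.12. The regulatory subunit PIK3R3, which binds phosphorylated IRS proteins and IGF1R, was 5.52-fold higher (4.49 to 6.83), from 1.73 to 10.9 TPM. The other regulatory subunits PIK3R1 and PIK3R2 had log2 ratios of 0.00 and 0.01. TRIB2 and the phosphatase INPP4B were 2.94-fold and 2.23-fold higher, and TRIB3, a pseudokinase that binds AKT, was 2.41-fold lower (2.34 to 2.49). AKT1 and AKT2 had log2 ratios of 0.44 and 0.10.

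In the mTORC1 list 0 of 18 genes were higher and 2 lower, with a median of −0.12: FLCN, a regulator of amino acid signalling to mTORC1, was 2.54-fold lower (2.26 to 2.86) and the mTOR inhibitor DEPTOR 2.32-fold (1.46 to 3.81). On TPM with a pseudocount of 1 that median was 0.04, and the median of the PI3-kinase and AKT list was −0.01 after removal of the length trend, so the signs of these small medians turn with the processing.

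Among FOXO factors and genes known as FOXO targets in other cells, 8 of 21 were higher and 1 lower, with a median of 0.81. TXNIP was 184-fold higher (155 to 221), the death ligand TNFSF10 43.4-fold (11.5 to 365) on 2 and 68 counts, and PIK3IP1 6.89-fold on 5 and 27. KLF15 was 20.8-fold lower (9.91 to 52.5), on 186 and 7 counts. FOXO1 and FOXO3 themselves had log2 ratios of 0.08 and 0.24. INSR and IRS2, also known as FOXO targets, had the ratios below equality given above, so the genes of this group did not share 1 direction. Several of these genes answer to other signals as well.

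In glucose uptake and lipid synthesis 0 of 12 measured genes passed the rule in either direction, with a median of 0.16. The glucose transporter SLC2A1 had a log2 ratio of 0.09, and SCD, a fatty acid desaturase that insulin induces in liver, −0.70.

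**Figure D5:**
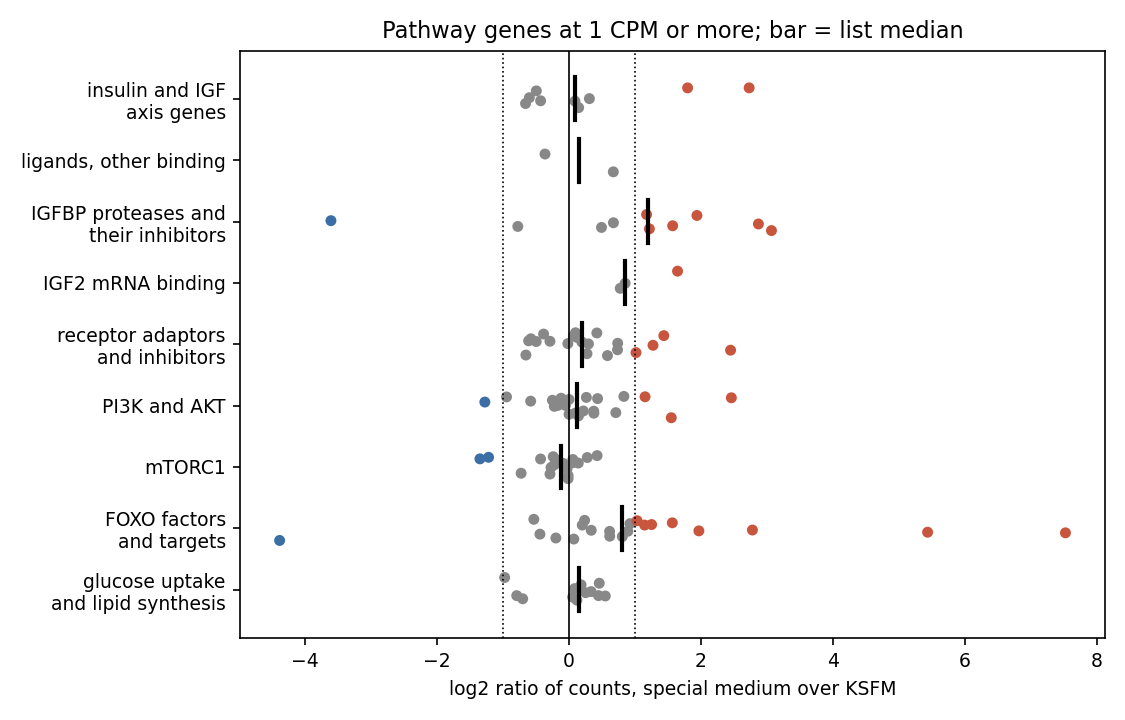
Log2 ratio of counts, special medium over KSFM, for each measured gene of the insulin and IGF axis and of 8 pathway lists (red, higher by the 2-fold rule; blue, lower; grey, neither), with a black bar at each list's median. The list of proteases and their inhibitors has its median at 1.20 and the FOXO list at 0.81. The medians of the PI3-kinase, mTORC1 and glucose lists lie between −0.12 and 0.16.

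Markers of other cell types were read in the same way. Of the fibroblast and keratocyte list 2 of 11 genes were measured, FAP (100 and 278 counts, 3.55-fold higher) and COL1A1 (166 and 143). Its summed level was 5.81 TPM in KSFM and 16.1 in the special medium, and LUM, KERA and THY1 were at 0 in both. The vascular endothelial list summed to 1.28 and 10.3 TPM, of which CDH5 alone was 0.06 and 7.09, on 3 and 236 counts. ROBO4 had 43 and 79 counts, PECAM1 2 and 15, KDR 10 and 10, VWF 6 and 2, and TEK 0 in both. The liver list, as liver makes IGF1 and IGFBP1, summed to 17.5 and 98.6 TPM, with 5 of 6 measured genes higher. The general epithelial list summed to 2441 and 5854 TPM, with 3 of 7 measured genes higher. The corneal epithelial list summed to 298.8 and 942 TPM, the corneal endothelial list to 349 and 437, the immune list to 62.8 and 77.2 and the melanocyte list to 11.9 and 16.0. All 8 lists thus had a higher summed TPM in the special medium, on the scale whose median is shifted upward, as did IGFBP3 and IGFBP6. Such sums rest on the most abundant genes of each list. SERPINA1, at 16.6 and 21.4 TPM, made up most of the liver sum in KSFM. Of the 34 measured genes in the lists, 17 were higher by the 2-fold rule, 1 lower (LYZ, 48 and 11 counts) and 16 neither. Over all measured genes the rule called 9.86% higher and 6.77% lower. The part of these cell types in the IGFBP3 and IGFBP6 values was not tested.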

How the data were processed

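The authors deposited 2 tables of 26506 genes: estimated counts as deposited, not normalised and with fractional values for 11.3% (KSFM) and 8.05% (special medium) of genes, and TPM values as deposited, which adjust for length and have equal sums. The submitters' processing notes name the GRCh38 build, RSEM, HISAT2 (2.1.0), fastp (0.20.0) and FastQC (0.11.9), without the order of steps. For the RSEM version, the annotation and the strand setting, nothing is stated in the labels.

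Estimated counts were rounded and scaled with edgeR 4.0.16 TMM factors (0.999 and 1.00). Log2 ratios have exact 95% Clopper-Pearson intervals on the pair of counts, levels have exact Poisson intervals, and within-library ratios have exact conditional odds ratio intervals. All intervals cover counting error only, not the spread between cultures or libraries. Reads carry no molecular identifiers, so copies of the same molecule cannot be told apart, and the intervals may be too narrow even for counting error. With 1 library per medium no test was possible. The computation of intervals and calls was checked on simulated counts drawn with counting error only. That check cannot address the spread between cultures or libraries. A gene was called with at least 1 CPM in either library, a 2-fold ratio and an interval excluding equality, and no ratio was given where neither library exceeded 3 counts.

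The 10 genes and the lists were chosen with earlier results of these data known. Named from each list were up to 4 genes past the rule with the largest ratios, or, where none did, the 2 with the highest TPM, and the ligands, IGFBP1, IGF2R and INSRR; others were chosen after their values were seen. The 3 nearest genes were found for the members furthest above and below equality. Some genes that these rules name are left out of the text. Alternatives were scaling by upper quartile, by DESeq2 1.42.0 size factors or by total count, log2 TPM with 1 or 0.1 added, other filters, stricter rules and removal of a cubic trend on effective length (count per TPM, for genes at 1 TPM and 20 counts or more in both libraries); centred TPM was added after the data were seen. Gene bounds are from GENCODE release 29 and promoters from RefSeq. Software was Python 3.11.15 with scipy 1.17.1, numpy 2.4.6, matplotlib 3.10.9 and pandas 2.3.3, and R 4.3.3.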

Additional observations from a re-analysis of the deposited data

How the results depend on the processing

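The call of IGFBP3 and IGFBP6 as higher, and of no member as lower, held under total count, DESeq2 and upper quartile scaling, TPM with either pseudocount, centred TPM, a filter of 10 CPM or none, an interval wholly beyond 2-fold and removal of the length trend. Under a 4-fold rule 1 member, IGFBP3, was called higher. The log2 ratio of IGFBP3 ran from 2.38 to 2.86, of IGFBP6 from 1.78 to 2.08 and of IGFBP7 from −0.68 to −0.44. That of IGF1R ran from −0.45 to −0.24, of INSR from −0.53 to −0.26 and of IRS2 from −0.70 to −0.41. IGFBP2 ran from 0.29 to 0.54, IGFBP4 from 0.09 to 0.32, IRS1 from 0.04 to 0.24 and the median of the members from 0.04 to 0.24. The main interval of IGFBP4 began at 0.03 and its lowest ratio came without the length trend, so its place above equality is not firm.

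Over all genes, higher and lower calls numbered 788 and 446 with a filter of 10 CPM, 408 and 162 under the 4-fold rule, 837 and 395 with an interval wholly beyond 2-fold, and 815 and 568 without the length trend, which could be fitted for fewer genes. Lower calls numbered 349 on TPM with a pseudocount of 1, 605 with 0.1 and 536 after centring. The cause was not tested. IGFBP3 rests on 83 counts in KSFM, and depth does not resolve IGFBP5 or IGFBP1. No replicate could be left out, with 1 library per medium. No paired analysis was possible because each medium has a single pooled library.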
